A study of Mus musculus with 6 samples.

Results

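The enzymes that make fatty acids were followed in RNA from whole thoracic mammary glands in a transgenic mouse with excess luteinizing hormone (LH), which acts on the gonads to raise sex steroids. A list of 10 genes was used: Fasn, Acaca, Acly, Scd1, Scd2, Me1, Elovl6, Pcx, Thrsp and Srebf1. All probe sets that the platform annotation ties to 1 of these genes and no other were taken, which gave 18 of the 10855 probe sets with a single gene, for 9 of the 10 genes. Acaca, the gene of acetyl-CoA carboxylase, had none and was not analysed here. Of the 18, 4 are array control probe sets of Pcx. Of the other 14, 13 passed the filter on dim signals, and 1 of Scd1 (94058_r_at, 31.7 to 140.4 on the 6 arrays) did not.

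The animals were virgin F1 mice of CF-1 and FVB parents, aged 16 weeks, either wild type or LH transgenic. Each group held 3 arrays, and each array carried RNA pooled from 3 animals, so p-values measure the spread between pools. The labels do not name the promoter of the transgene. In whole-gland RNA, fewer cells of a type and less RNA per cell cannot be told apart.

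Fatty acid synthesis starts from citrate, which leaves the mitochondrion and is split in the cytosol into acetyl-CoA. Acetyl-CoA carboxylase turns this into malonyl-CoA, fatty acid synthase builds palmitate from it with NADPH, and elongases and desaturases then lengthen the chain and add double bonds. In the mammary gland both the fat cells of the stroma and the alveolar cells that secrete milk fat run this pathway. SREBP-1, the product of Srebf1, is a transcription factor that raises many of its genes.

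The RefSeq promoter table (build GRCm38.p6) held 12 start windows for 8 of the 10 genes. Scd1 and Scd2 were not in it. The 250 bases before a start are shown for 3 enzymes. In the results below, Me1 fell strongly, Fasn fell a little and Acly was not called. Fasn and Acly were not tested against each other, and the intervals of their differences, given below, overlapped. The windows are chr9:86695915-86696164 for Me1, chr11:120824548-120824797 for Fasn and chr11:100528001-100528250 for Acly, all on the minus strand. Capitals mark CCAAT boxes (CCAAT) and GC boxes (GGGCGG), each searched on both strands.
Me1: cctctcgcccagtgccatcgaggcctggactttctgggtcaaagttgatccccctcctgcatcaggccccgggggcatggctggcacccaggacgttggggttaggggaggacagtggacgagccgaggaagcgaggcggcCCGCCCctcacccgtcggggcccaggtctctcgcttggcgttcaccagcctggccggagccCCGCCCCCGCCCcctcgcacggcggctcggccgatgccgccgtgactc
Fasn: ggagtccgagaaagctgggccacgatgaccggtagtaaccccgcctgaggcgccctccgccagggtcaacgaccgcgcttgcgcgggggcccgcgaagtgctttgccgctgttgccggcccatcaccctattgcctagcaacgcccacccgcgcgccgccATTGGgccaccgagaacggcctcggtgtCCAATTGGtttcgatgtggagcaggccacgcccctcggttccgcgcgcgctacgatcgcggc
Acly: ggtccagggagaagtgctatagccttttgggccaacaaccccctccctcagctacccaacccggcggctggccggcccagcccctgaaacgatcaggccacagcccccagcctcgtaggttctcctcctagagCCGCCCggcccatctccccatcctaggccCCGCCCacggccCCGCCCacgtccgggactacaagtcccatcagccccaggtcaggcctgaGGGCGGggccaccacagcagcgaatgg
The Fasn window held 3 CCAAT boxes, beginning 90, 62 and 59 bases before the start, of which the last 2 overlap on opposite strands, and no GC box. The Me1 window held 3 GC boxes (109, 48 and 42 bases before the start) and the Acly window 4 (117, 88, 76 and 27), and neither window shown held a CCAAT box. A CCAAT box was found in 6 of the 12 windows and in 33.85% of all 32851 windows of this length, and a GC box in 5 of the 12 and in 32.74%. The SREBP motif TCACNCCAC was in 0 of the 12 (1.05% of all windows) and the E-box CACGTG in 1, that of Pcx (6.02%). These matches describe letters and not bound sites.

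Values are MAS5 signals, which are comparable between arrays for a probe set and not between probe sets. A difference is the LH transgenic mean less the wild type mean of log2(signal + 80.0), and a probe set was called at a limma adjusted p under 0.05 over all 7453 probe sets tested. Of the 13 member probe sets tested, 6 were called lower, against 10.8% of all probe sets, and 0 were called higher, against 10.5%. The 6 belonged to Elovl6, Me1, Pcx, Scd2 and Fasn. At an unadjusted p under 0.05 no further member was higher, and Thrsp was lower. In 8 of the 13 the 2 groups had no overlap in signal, against 40.4% of all probe sets. The median difference was -0.34 for the members and 0.02 for all probe sets. The median signal of an array was 540.6 to 583.5.

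**Figure D1:**
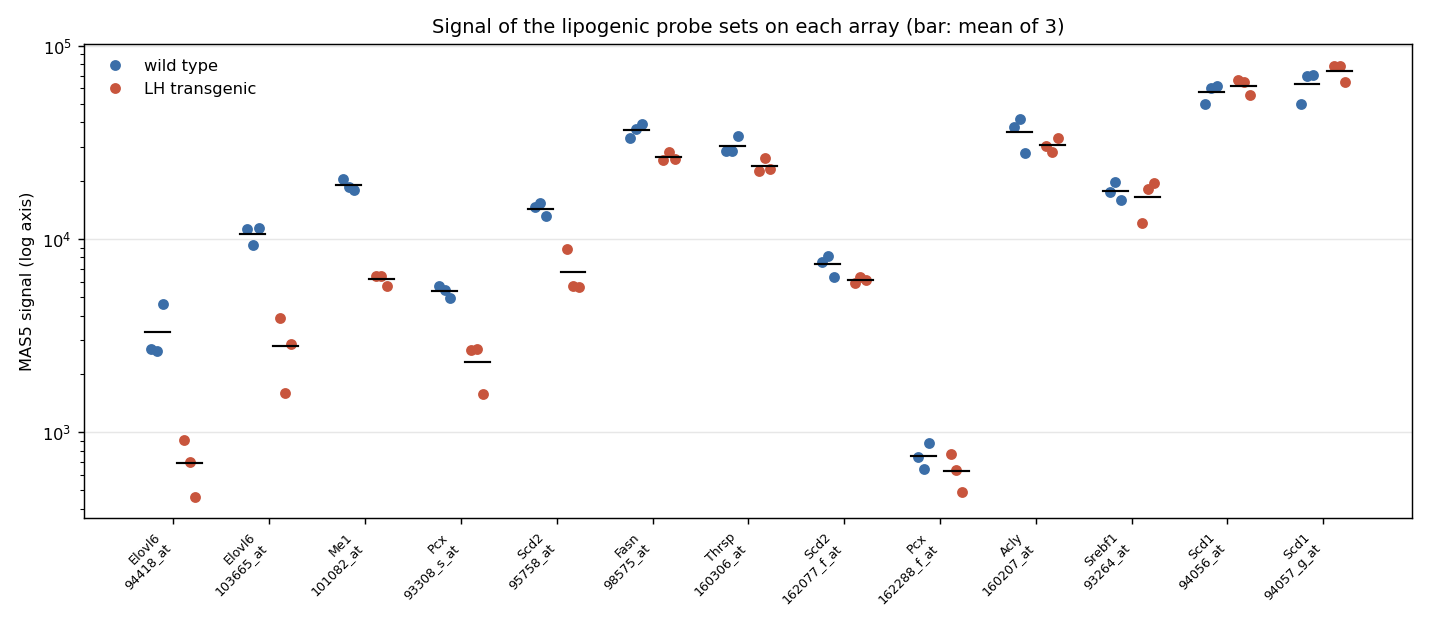
MAS5 signal (log axis) of the 13 tested lipogenic probe sets on each of the 3 wild type and 3 LH transgenic arrays, ordered by their difference, with a bar at the mean of each group. The groups lie apart for Elovl6, Me1, Pcx 93308_s_at, Scd2, Fasn and Thrsp, and overlap for Acly, Srebf1, Scd1 and Pcx 162288_f_at.

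Among the enzymes that supply carbon and NADPH, Me1 fell most. Me1, cytosolic malic enzyme, makes NADPH for the synthase, and its signal (101082_at) was 20463.9, 18523.1 and 17935.8 in wild type pools 1 to 3 and 6432.9, 6421.6 and 5709.2 in LH transgenic pools 1 to 3. The LH transgenic arrays were all below the wild type arrays, and their mean was 32.6% of the wild type mean. The log2 difference was -1.60 (SE 0.12, 95% interval -1.87 to -1.34, limma adjusted p 0.000105). Acly, ATP citrate lyase, makes the cytosolic acetyl-CoA, and its signal (160207_at) was 37899.1, 41762.1 and 27736.3 in wild type and 30089.6, 28144.3 and 33176.6 in LH transgenic pools. The groups overlapped, with wild type pool 3 the lowest of all 6, and the difference was -0.21 (95% interval -0.57 to 0.14, adjusted p 0.371).

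Pcx, pyruvate carboxylase, replaces the oxaloacetate that leaves with citrate. Its signal (93308_s_at) was 5686.8, 5404.8 and 4934.7 in wild type pools and 2659.5, 2675.1 and 1572.3 in LH transgenic pools. All LH transgenic arrays lay lower (log2 -1.22, SE 0.20, adjusted p 0.00307), with a mean at 43.1% of wild type. A dimmer probe set (162288_f_at) ran from 643.5 to 872.9 in wild type and from 487.9 to 767.1 in LH transgenic pools and was not called (-0.24, 95% interval -0.68 to 0.21, adjusted p 0.437). The suffix f on an Affymetrix probe set marks probes shared by a family of sequences. The called 93308_s_at carries another suffix, and whether either probe set reads further sequences was not tested.

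The 4 control probe sets of Pcx, which read the 5′ part, 2 middle parts and the 3′ part of the transcript, did not move alike. They were fitted in an analysis, added after the values were seen, that tested the control probe sets too. The 3′ set fell from 12062.3, 11611.3 and 12077.1 to 6240.6, 6051.2 and 2899.0 (log2 -1.30, SE 0.26, adjusted p 0.00696). Middle set B fell as well, from between 3670.4 and 3830.1 to between 1042.3 and 2458.0 (-1.06, adjusted p 0.0182), a call lost without wild type pool 1 or 3 (adjusted p 0.0529 and 0.0579). Middle set A ran from 624.4 to 1751.5 in wild type and from 1029.4 to 1958.8 in LH transgenic pools, so the groups overlapped (0.49, adjusted p 0.387; 0.94 and adjusted p 0.0455 without wild type pool 2). It was -0.14 when arrays were scaled to the bacterial controls.

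The 5′ set of Pcx went the other way: 356.0, 710.0 and 409.6 in wild type and 1549.5, 757.5 and 831.7 in LH transgenic pools. It was called higher (0.96, SE 0.30, adjusted p 0.0472), and lost that call under 6 of 12 other settings, among them the scale of the bacterial controls (0.36, adjusted p 0.264), a covariate for skeletal muscle (0.65, adjusted p 0.378) and leaving out wild type pool 1 (0.79, adjusted p 0.147) or 3 (0.87, adjusted p 0.139) or LH transgenic pool 1 (0.66, adjusted p 0.150) or 3 (1.08, adjusted p 0.0552). The 3′ to 5′ signal ratio of Pcx was 16.4 to 33.9 for wild type pools and 3.49 to 7.99 for LH transgenic pools. The same ratio of the control genes Gapdh and Actb, a usual check of RNA and labelling quality, was 1.15 to 1.37 and 2.02 to 2.24 in wild type and 1.05 to 1.41 and 1.27 to 2.09 in LH transgenic arrays. The part of RNA quality in the Pcx values was not tested.

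**Figure D2:**
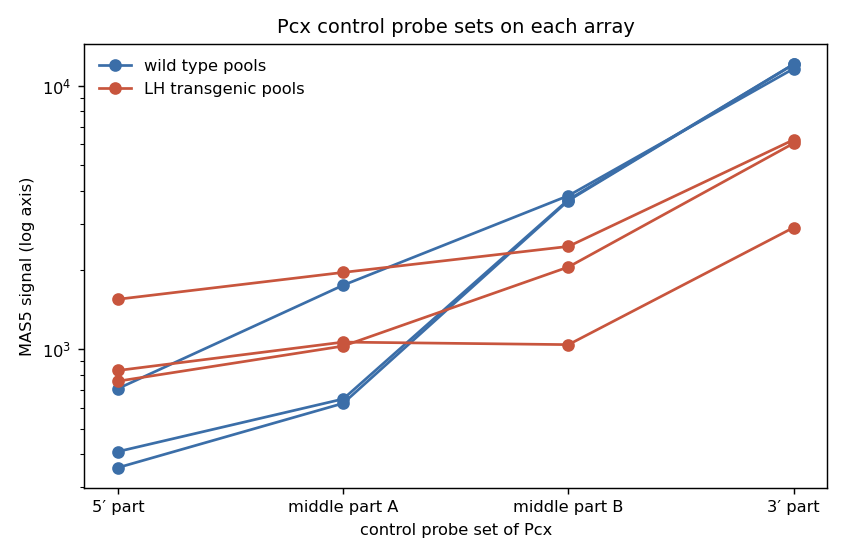
MAS5 signal (log axis) of the 4 Pcx control probe sets, in the order their names give from the 5′ to the 3′ part, with 1 line per array. Wild type lines end between 11611.3 and 12077.1 at the 3′ part and LH transgenic lines between 2899.0 and 6240.6, while at the 5′ part the LH transgenic lines lie at or above 757.5 and the wild type lines at or below 710.0.

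Fasn, the fatty acid synthase itself, fell modestly. Its signal (98575_at) was 33397.3, 37077.2 and 39091.6 in wild type pools and 25675.4, 27970.1 and 25911.8 in LH transgenic pools, without overlap. The LH transgenic mean was 72.6% of the wild type mean (log2 -0.46, SE 0.11, 95% interval -0.71 to -0.21, adjusted p 0.0163). The call was lost without wild type pool 2 or 3 (adjusted p 0.0504 and 0.0692), without LH transgenic pool 1 (0.0563) and after a covariate for skeletal muscle was added (-0.48, adjusted p 0.105).

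Elovl6 lengthens palmitate to stearate and had the largest decrease of the members in the deposited values. The brighter of its 2 probe sets (103665_at) had signals of 11220.7, 9260.3 and 11367.8 in wild type and 3893.8, 1597.5 and 2843.2 in LH transgenic pools. The other (94418_at) had 2693.6, 2609.9 and 4602.2 against 906.0, 695.9 and 461.7. Both were lower on every LH transgenic array than on any wild type array, with means at 26.2% and 20.8% of wild type. The log2 differences were -1.98 (SE 0.27, adjusted p 0.00132) and -2.13 (SE 0.27, adjusted p 0.000896).

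Scd1 and Scd2 encode stearoyl-CoA desaturases, which put a double bond into stearate and palmitate, and the 2 genes gave different values. Scd1 (94056_at) had signals of 49748.5, 60302.9 and 61853.6 in wild type and 66135.9, 64561.8 and 55429.1 in LH transgenic pools. A second Scd1 probe set (94057_g_at) had 50085.2, 69949.1 and 70814.9 against 78867.7, 78710.8 and 65042.4. The groups overlapped for both, with differences of 0.12 (95% interval -0.16 to 0.40, adjusted p 0.548) and 0.23 (-0.11 to 0.58, adjusted p 0.314). These were among the brightest signals on the arrays: 5 to 43 probe sets of an array exceeded the first and 1 to 25 the second. Whether the scanner or the probes were near their upper limit was not tested.

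Scd2 (95758_at) had 14595.5, 15360.2 and 13039.9 in wild type and 8864.0, 5662.5 and 5633.7 in LH transgenic pools. It fell without overlap to 46.9% of the wild type mean (log2 -1.11, SE 0.18, adjusted p 0.00299). A second Scd2 probe set (162077_f_at) had 7580.8, 8147.2 and 6358.3 against 5872.2, 6310.8 and 6137.5, and was not called (-0.26, 95% interval -0.55 to 0.03, adjusted p 0.188). Whether that probe set, whose suffix marks shared probes, also reads Scd1 was not tested. The level of Scd1 over Scd2 within an array (94057_g_at against 95758_at) was 1.77, 2.18 and 2.43 on the log2 scale in wild type and 3.14, 3.78 and 3.51 in LH transgenic pools. This ratio was higher by 1.35 without overlap (exact permutation p 0.1, two-sided, the smallest that 3 against 3 arrays can give).

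Of the members that regulate the pathway, neither was called. Thrsp, or Spot 14, is a nuclear and cytosolic protein that promotes lipogenesis in fat, liver and mammary gland. Its signal (160306_at) was 28365.4, 28587.8 and 34205.2 in wild type and 22499.2, 26288.8 and 22887.2 in LH transgenic pools. The groups did not overlap, but the difference of -0.34 (95% interval -0.62 to -0.07) missed the threshold (adjusted p 0.0749). After quantile normalization it was -0.54 and called (adjusted p 0.0101). Srebf1 (93264_at) had 17428.2, 19755.0 and 15894.8 in wild type and 12078.4, 18070.3 and 19381.1 in LH transgenic pools, where pool 1 was the lowest array of all and pool 3 the second highest. Its difference was -0.12 (95% interval -0.53 to 0.28, adjusted p 0.674) and 0.09 without LH transgenic pool 1.

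**Figure D3:**
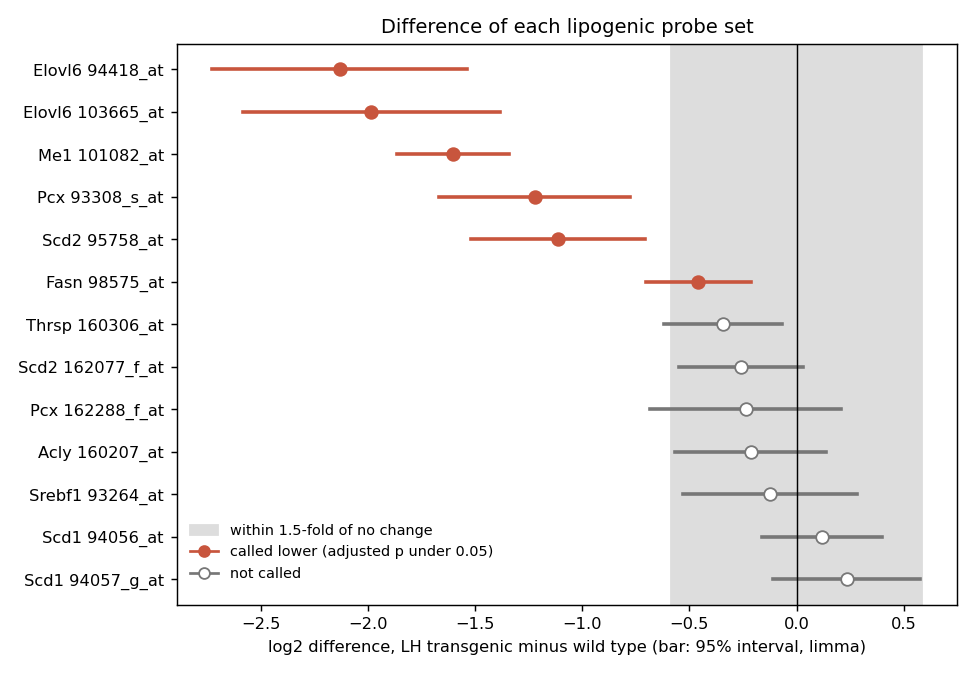
Log2 difference (LH transgenic minus wild type) of the 13 tested lipogenic probe sets with the 95% interval from limma, in red where called lower and in grey where not called. The shaded band covers 1.5-fold either side of no change and wholly holds the intervals of Acly, Srebf1, both Scd1 probe sets and Scd2 162077_f_at.

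To ask which enzymes held their level, a probe set was said to hold where it was not called and the whole 95% interval lay within 1.5-fold of no change (0.585 on the log2 scale). On the deposited scale 5 of 13 did: those of Acly and Srebf1, both of Scd1, and 162077_f_at of Scd2. Of all probe sets tested, 37.6% met the same rule, a share near that of the members. Thrsp and Pcx 162288_f_at were neither called nor within the band, so neither a held level nor a change was shown for them. Scd1 94056_at met the rule under 17 of 18 other settings run on probe sets, Scd2 162077_f_at under 12, Srebf1 under 11, Acly under 9 and Scd1 94057_g_at under 8. With wild type pool 3 or LH transgenic pool 2 left out, 2 of the 13 held. With wild type pool 1, LH transgenic pool 1 or LH transgenic pool 3 left out, 3 held. Not all of these were among the 5 named: Thrsp met the rule without wild type pool 3, and Pcx 162288_f_at without LH transgenic pool 3.

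The 1 setting under which Scd1 94056_at did not meet the rule was the scaling of arrays to 9 bacterial control probe sets. On that scale the median of all probe sets was -0.62, and 3859 were called lower and 140 higher, against 805 and 781 on the deposited scale. All 13 member probe sets were then called lower, Scd1 among them (-0.57 and -0.46, adjusted p 0.00543 and 0.0232), and 0 held. Relative to the median of all probe sets on that scale, the 2 Scd1 probe sets stood at 0.05 and 0.17, Srebf1 at -0.19, Acly at -0.28, Fasn at -0.53, Me1 at -1.67 and Elovl6 at -2.04 and -2.15. Scd1 also turned below 0 after quantile normalization (-0.29 and -0.24, adjusted p 0.0691 and 0.192), and 94056_at with a covariate for skeletal muscle (-0.05), so its direction is not settled.

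A comparison within each array does not depend on that scale. The level of each gene's brightest probe set was set against the mean log2 level of 17 adipocyte genes of the same array, and against that of 18 alveolar and milk genes. The adipocyte mean went from 13.35 ± 0.08 in wild type to 12.12 ± 0.14 in LH transgenic arrays (SD, n = 3), a difference of -1.24, and the alveolar mean was 13.77 ± 0.58 and 15.11 ± 0.29, higher by 1.34. The 23 tested adipocyte probe sets were spread widely, from -2.90 to 0.29 (median -1.26). Car3 (0.06), Fabp4 (-0.33) and Adipoq (-0.69) also lay above the adipocyte mean, so a higher ratio does not set a member apart from every fat cell gene. Relative to the adipocyte genes, Scd1 was higher by 1.47, Srebf1 by 1.11, Acly by 1.02, Thrsp by 0.89 and Fasn by 0.78, each without overlap between the groups. Scd2 (0.12) and Pcx (0.01) overlapped. Me1 (-0.37) and Elovl6 (-0.75) lay lower without overlap. With the median of the adipocyte genes in place of the mean, Me1 was at 0.02, Elovl6 at -0.36 and Fasn at 1.16, and the groups then overlapped for Me1 and Elovl6.

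Relative to the alveolar and milk genes all 9 genes lay lower without overlap, from -1.11 for Scd1 and -1.47 for Srebf1 to -2.95 for Me1 and -3.33 for Elovl6. The 19 comparisons of this kind have a smallest exact permutation p of 0.1, two-sided, which 17 of them reached (0.112 after Benjamini-Hochberg adjustment), so none could pass 0.05. A ratio within an array shows unequal change and not which of its parts changed. Both reference lists were chosen with earlier results of these data known. The alveolar mean rose by 1.34 and no member by more than 0.23, so the lower ratios followed from the choice of list. A gene near no change likewise had to lie above the adipocyte mean.

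**Figure D4:**
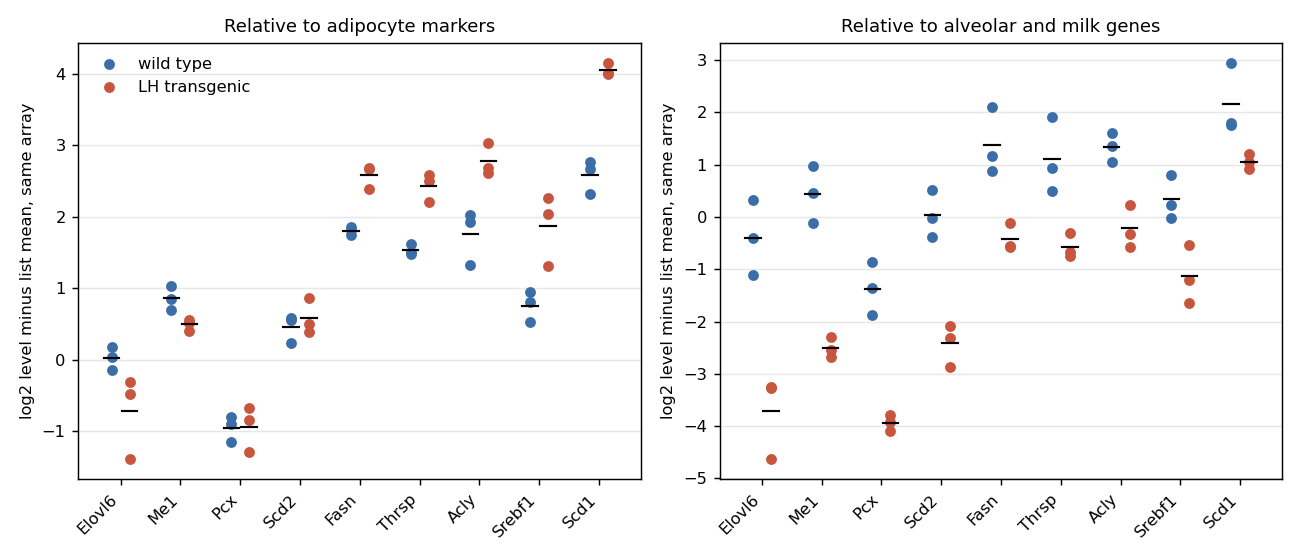
Log2 level of each lipogenic gene minus the mean of the adipocyte markers (left) or of the alveolar and milk genes (right) on the same array, for 3 wild type and 3 LH transgenic arrays, with bars at group means. Only the shift between the groups of a gene is comparable, not heights of different genes: Scd1 moved up by 1.47 on the left and down by 1.11 on the right, and Elovl6 moved down on both sides.

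Other enzymes of the pathway were taken from a list of 48 genes that supply carbon and NADPH, elongate, desaturate or activate fatty acids, of which 23 were tested with 24 probe sets. Of these, 4 were called lower and 1 higher, against 10.8% and 10.5% of all probe sets tested, and the median difference was -0.09. With wild type pool 2 or 3 or LH transgenic pool 1 left out, 2 were called lower, and without LH transgenic pool 3, 2 were called higher. Slc25a1, the carrier that exports citrate from the mitochondrion, fell on both probe sets. Its signals on 94807_at were 13111.0, 13081.4 and 12030.5 in wild type and 7000.9, 6584.4 and 5099.6 in LH transgenic pools (-1.03, adjusted p 0.0014), and 162358_i_at was lower by a like size (-1.19, adjusted p 0.000884). The cytosolic NADPH enzyme Idh1 fell by 0.61 on the log2 scale (adjusted p 0.0334) and transketolase, Tkt, of the pentose phosphate pathway by 0.46 (adjusted p 0.0404). Each of these 2 lost its call under 8 of 20 other settings, up to adjusted p 0.354 and 0.12.

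Acsl4, an acyl-CoA synthetase that prefers arachidonate, was the 1 enzyme of that list called higher. Its signal was 1540.3, 1647.6 and 1285.9 in wild type and 4504.7, 4493.2 and 4190.2 in LH transgenic pools, without overlap (1.52, SE 0.14, adjusted p 0.000264). The brightest enzymes of the list that were not called were the malate dehydrogenase gene Mdh2 (0.06, or -0.63 when scaled to bacterial controls) and the pyruvate dehydrogenase genes Pdha1 (-0.27) and Pdhb (-0.25), with adjusted p of 0.762, 0.140 and 0.196.

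The enzymes that build fatty acids into triglyceride had 10 tested genes with 11 probe sets (median -0.47). Of these, 5 were called lower and 0 higher, against 10.8% and 10.5% of all probe sets tested. At an unadjusted p under 0.05 none was higher either. Dgat1, which adds the last acyl chain, fell from 6190.0, 6219.9 and 5816.5 to 3184.4, 2682.9 and 2844.1 (-1.05, adjusted p 0.000719). Gpam, which adds the first, fell from between 9270.7 and 10612.0 to between 4477.6 and 5874.0 (-0.92, adjusted p 0.00192). Pck1, which makes glycerol phosphate precursors in fat cells, fell by 1.22 (adjusted p 0.00592), and Gpd1, glycerol-3-phosphate dehydrogenase, by 0.70 (adjusted p 0.0172). The Gpd1 call was lost without wild type pool 1 or 3 (adjusted p 0.0632 and 0.0571). A dimmer Gpd1 probe set was at -0.234 and not called (adjusted p 0.449). The mean of the tested Gpd1 probe sets was at -0.467 and not called either (adjusted p 0.0687). Agpat5 (-0.06), Agpat3 (-0.43) and Gpd2 (-0.47; -0.80 and adjusted p 0.0199 without wild type pool 1) were not called, with adjusted p of 0.788, 0.0814 and 0.240.

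Regulators of lipogenesis had 23 tested genes with 28 probe sets (median 0.17). Of these, 7 were called lower and 3 higher, against 10.8% and 10.5% of all probe sets tested. The share called higher was thus near that of all probe sets. Mid1ip1 is a paralogue of Thrsp that activates acetyl-CoA carboxylase. Its signal fell from 4616.1, 4853.3 and 4664.0 to 1470.3, 1466.7 and 1756.6 (-1.55, SE 0.13, adjusted p 0.000187). A dimmer Mid1ip1 probe set was also called lower, by less (-0.775, adjusted p 0.0196). Pparg, the nuclear receptor of fat cell differentiation, fell from 2998.8, 2784.9 and 2830.0 to 810.1, 877.0 and 1206.9 (-1.52, adjusted p 0.000496). Akt2, the insulin signalling kinase of fat cells, fell by 1.39 (adjusted p 0.00102) and Cebpa, a transcription factor of fat cells, by 0.98 (adjusted p 0.00841).

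The insulin receptor substrate gene Irs2 rose from 112.3, 132.3 and 372.4 to 762.9, 640.1 and 792.0 (1.61, adjusted p 0.00714), and Sp1, the factor that binds GC boxes, from 784.8, 2005.8 and 1732.2 to 2953.7, 3634.6 and 3812.7 (1.25, adjusted p 0.0145). With a covariate for skeletal muscle the differences were 1.66 and 1.45, no smaller than without it, and neither was called (adjusted p 0.0655 and 0.0721). With LH transgenic pool 3 left out, 5 regulators were called higher. Cebpb was called higher (0.50, adjusted p 0.0229), and lay at -0.19 with the bacterial controls as the scale. It also lost its call without any of the 3 wild type pools or LH transgenic pool 2 (adjusted p 0.0565 to 0.0755). Akt1 (0.54), Nfyc (0.28) and Rxrb (0.20) were not called. Akt1 had adjusted p 0.0466 without wild type pool 2 and 0.0431 without LH transgenic pool 3. All 3 of these probe sets lay below 0 on the bacterial control scale (-0.14, -0.40 and -0.48). A dimmer Nfyc probe set lay below 0 on the deposited scale and was not called (-0.187, adjusted p 0.701).

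**Figure D5:**
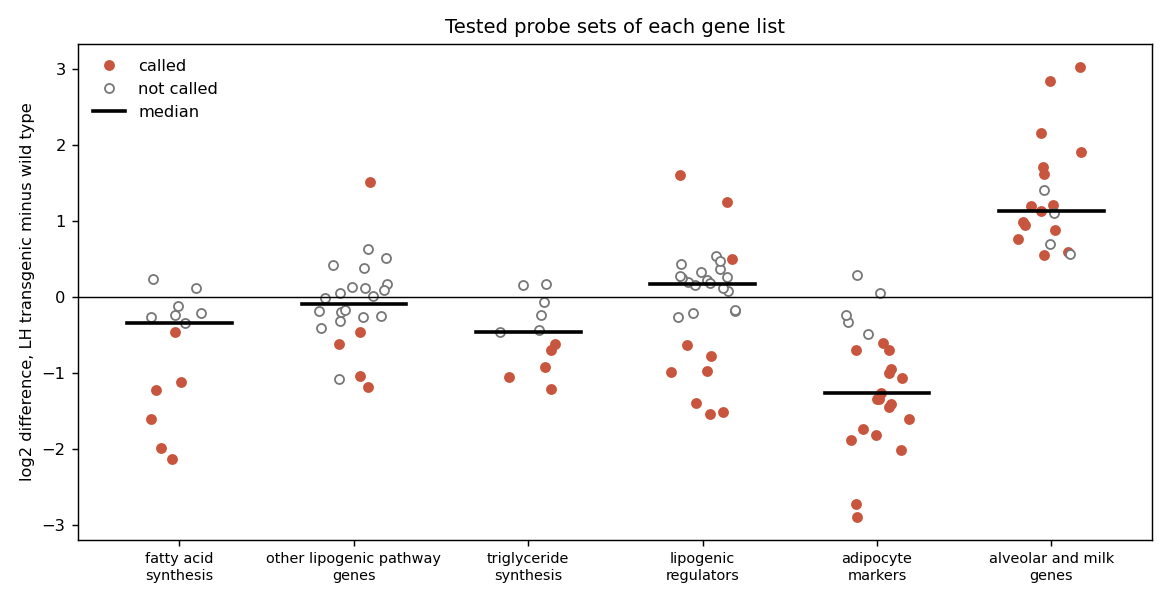
Log2 difference (LH transgenic minus wild type) of every tested probe set of 6 gene lists, filled where called in either direction and open where not, with a bar at the list median. Medians were -0.34 for lipogenic members, -0.47 for triglyceride synthesis, -0.09 for other pathway genes and 0.17 for regulators. They were -1.26 for adipocyte markers, 1.13 for alveolar and milk genes and 0.02 for all tested probe sets. Any list near no change lies between the adipocyte and the alveolar median. Gpd1 is in both the triglyceride and the adipocyte list.

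Markers of both cell types that use the pathway moved in the same comparison, in which 10.8% of all tested probe sets were called lower and 10.5% higher. Of 23 adipocyte probe sets tested 18 were called lower and 0 higher (median -1.26). The largest decreases were those of the esterase Ces1d (-2.90), the hormone resistin, Retn (-2.02), and angiotensinogen, Agt (-1.88). That Ces1d probe set, 101539_f_at, carries the suffix f as well, and the other, 101538_i_at, was at -2.73. The summed signal of the 25 adipocyte probe sets was 307206 to 348832 in wild type and 165013 to 181971 in LH transgenic arrays. Of 19 alveolar and milk probe sets 15 were called higher and 0 lower (median 1.13), led by Fabp3 (3.04), Csn1s2b (2.84), the milk mucin Glycam1 (2.16) and the milk lipase Cel (1.91). The count was 8 on the bacterial control scale and 4 with a covariate for skeletal muscle, where Fabp3, Csn1s2b and Cel were not called. Over all 7453 probe sets, 140 and 340 were called higher under these 2 settings. The summed signal of the alveolar and milk probe sets was 333242 to 573276 in wild type and 810460 to 1040347 in LH transgenic arrays. The part of these shifts in the values of the enzymes was not tested.

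Markers of other tissues and cell types also differed between pools. The summed signal of 26 skeletal muscle probe sets was 126532 to 142938 in wild type, 28006 and 33217 in LH transgenic pools 1 and 2 and 116237 in pool 3. Without LH transgenic pool 3, 6 members were called lower too. That leaves LH transgenic pools 1 and 2, which had the lowest muscle sums, so it cannot test the part of muscle. Brown fat lies near thoracic glands and uses the pathway strongly. Its defining gene Ucp1, chosen after its values were seen, had 167.1, 1248.2 and 3953.8 in wild type and 145.3, 215.8 and 961.5 in LH transgenic pools, high in wild type pool 3 (-1.42, adjusted p 0.295; -2.49 and adjusted p 0.0372 without wild type pool 1). The summed signal of 11 brown fat probe sets was 6510, 9112 and 16845 in wild type and 10536, 10302 and 6710 in LH transgenic pools, mostly from Cidea in LH transgenic pools 1 and 2 (7322.6 and 7015.3). Without Cidea, an alternative added after the values were seen, the sums were 3828, 6443 and 11921 against 3214, 3287 and 3882. Of 6 brown fat probe sets tested 5 lay below 0 (median -0.70), and 1, of Cox8b, was called lower. Without wild type pool 3, 5 members were called, with Elovl6, Me1, Pcx 93308_s_at and Scd2 95758_at among them. That fit keeps wild type pool 2, whose Ucp1 signal of 1248.2 exceeded every LH transgenic array, so it cannot test the part of brown fat. The summed signals of 22 luminal epithelial probe sets (68254 to 75951 against 80277 to 101993), 16 macrophage probe sets (30141 to 46303 against 57433 to 68084) and 10 basal probe sets (18178 to 22678 against 24691 to 26994) were higher in every LH transgenic array than in any wild type array. Single markers went both ways: of 15 luminal probe sets tested 6 were called higher and 3 lower (median 0.27), the lower ones being Foxa1, Prom1 and Krt7, and of 8 basal probe sets 2 were called higher and 2 lower (median 0.002). Acta2, a gene of contractile cells, made up much of the basal sum (8900 in wild type and 14014 in LH transgenic arrays on average). The summed signals of 11 lymphocyte probe sets overlapped (5051 to 7605 against 2908 to 5983). Their part in the results was not tested.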

How the data were processed

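Each deposited value is a linear intensity of 1 probe set. Per the submitters' processing notes the tool was MAS5. No version, detection call or build was given in these sources. The trimmed mean (2% off each end) was 1499.7 or 1499.8 on every array, so a shift of most genes one way would not show. Groups came from the source names. The members and gene lists were chosen with earlier results of these data known, and no set test was run on the lists. The adipocyte and alveolar lists also served as the reference of the within-array permutation tests, which share that limit.

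From the 12488 probe sets, 66 controls were set aside, and log2(signal + 80.0) was computed, 80.0 being the 20th percentile of all values. Those whose mean signal reached 336.0 (40th percentile), 7453 in all, were tested with limma (lmFit, eBayes with a trend, two-sided) and Benjamini-Hochberg adjustment at 0.05. The fit was tested on simulated data. Precision is limited by 3 arrays per group.

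Genes were named through the platform annotation, where 10817 of 10833 identifiers were found in a GRCm38.p6 gene table. All member probe sets were reported. From the pathway lists, up to 4 called probe sets each way by size and up to 3 uncalled by brightness were named. Up to 4 called markers of fat and alveolar cells were named too. The other tested probe sets of Gpd1, Mid1ip1 and Nfyc were given as well. Alternatives were quantile normalization, median centring, bacterial controls as the scale, other pseudocounts (a floor at 16.8, or 325.5 added), no filter or one at 933.0, eBayes without a trend or robust, arrayWeights, a skeletal muscle covariate, 1 value per gene, and leaving out each array. Two-sided exact permutation tests over arrays were used for within-array ratios. The fits ran in R 4.3.3 with limma 3.58.1 and statmod 1.5.0. Tables and plots were made in Python 3.11.15 (matplotlib 3.10.9, pandas 2.3.3, numpy 2.4.6).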

Additional observations from a re-analysis of the deposited data

How the results depend on the processing

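The calls of Elovl6, Me1, Scd2 95758_at and Pcx 93308_s_at held under every other setting run on them (18 to 20 each). Over the 18 run on single probe sets the differences were -2.77 to -1.64 for Elovl6, -2.29 to -1.55 for Me1, -1.80 to -0.98 for Scd2 and -1.90 to -0.98 for Pcx. Averaged with their uncalled probe sets, Scd2 was at -0.69 and Pcx at -0.73. Fasn lost its call under 4 of 20. The count of member probe sets called lower was 5 to 7 under all settings but the bacterial controls, where it was 13, and 0 were called higher under any. The count that held within 1.5-fold was 5. It was 6 with the larger pseudocount, 4 after quantile normalization or median centring and 0 with the bacterial controls. It was 2 by eBayes without a trend or with the skeletal muscle covariate. It was 3 with no filter, with arrayWeights or with 1 value per gene (highest or mean probe set). When 1 array was left out it was 2 to 4. The share of all probe sets that held was not taken for these other settings. In the 3 pathway lists together, 16 were called lower (36 with the bacterial controls) and 4 higher (7 with arrayWeights, 2 with the muscle covariate, 3 to 7 when 1 array was left out, the 7 without LH transgenic pool 3).

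Signs turned for several genes, none of them called but Cebpb. Scd1 94056_at was at -0.29, -0.57 and -0.05 after quantile normalization, with the bacterial controls and with the muscle covariate, and 94057_g_at at -0.24 and -0.46 with the first 2. Srebf1 was at 0.221 and Agpat5 at 0.077 with the muscle covariate, and when 1 array was left out they ranged from -0.253 to 0.086 and from -0.135 to 0.003. With the bacterial controls Mdh2 was at -0.63, Cebpb at -0.19, Akt1 at -0.14, Nfyc at -0.40, Rxrb at -0.48 and the Pcx control middle set A at -0.14. The cause was not tested. No paired analysis was possible because nothing in the labels pairs the arrays.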
